A study of Homo sapiens with 6 samples.

Results

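The 42 genes described here encode the enzymes that add methyl groups to lysines of histones or take them off, with the PRC2 subunits EED and SUZ12. They were taken by symbol from a table of 50868 genes, each matched 1 row, and they were grouped by the histone residue acted on. The RNA came from KYSE-150, an established cell line of human squamous carcinoma of the oesophagus, and was sequenced in bulk. The 3 siZNF514 libraries are described in the labels as a ZNF514 knockout made with siZNF514, and the 3 nc libraries carry no genotype label and are called wild type in the series text. All 6 libraries are of the same line, no other allele or agent is named, and the labels are silent on what the nc cells received in place of siZNF514. By its prefix siZNF514 reads as an interfering RNA, which degrades a message and leaves the gene intact, so knockout is the word of the labels only. The comparison asks how cells with less RNA of ZNF514, which encodes a zinc finger protein, differ from nc cells.

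Methyl groups on histone lysines are read by other proteins, and their effect depends on the residue. Methylation of H3K4 marks active promoters and enhancers, that of H3K36 and H3K79 marks transcribed gene bodies, and that of H3K9 and H3K27 marks silent chromatin, while H4K20 methylation is tied to the cell cycle and to compact chromatin. Most methyltransferases carry a SET domain, DOT1L being the known exception, and the demethylases belong either to the flavin-dependent KDM1 family or to the JmjC family, which needs oxygen, iron and 2-oxoglutarate. In squamous carcinomas several of these genes, among them KMT2D, NSD1 and EZH2, are known for mutation or altered expression.

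The siZNF514 libraries held 13262363 to 14318909 counts and the nc libraries 12175259 to 13696180. ZNF514 itself had 64, 82 and 63 counts in siZNF514 and 239, 273 and 261 in nc, a fall to 27.3% of the nc level (log2 fold change -1.87, SE 0.14), and the exact permutation test (two-sided) gave p = 0.1, the lowest value possible with 3 libraries a group. All 8 squamous epithelial markers looked at were present, with a summed level of 1957 to 2329 CPM (counts scaled to library size and composition) in siZNF514 and 2319 to 2531 CPM in nc. Within that sum KRT5 (-0.52, SE 0.070) and KRT14 (-1.23, SE 0.14) fell and EPCAM (0.41, SE 0.039) and DSP (0.17, SE 0.031; 0.041 and not called with total counts alone) rose in edgeR's test, these values being log2 fold changes of siZNF514 over nc. CDH1 had 295, 544 and 522 CPM in siZNF514 and 487, 544 and 564 CPM in nc, siZNF514 replicate 1 being the low library. Leukocyte markers summed to 0 to 4.98 CPM in siZNF514 and 0.772 to 1.34 in nc, and endothelial markers (4 genes, CLDN5 at 0) to 1.88 to 2.27 CPM in siZNF514 and 3.11 to 3.31 in nc. The siZNF514 library of replicate 3 stood apart in both fibroblast and leukocyte markers. The 5 fibroblast markers summed to 0.46 to 17 CPM over the siZNF514 libraries, against 1.79 to 3.55 in nc, with 0, 0 and 112 counts of COL3A1 in siZNF514 and 5, 3 and 2 in nc. The leukocyte marker LYZ had 0, 0 and 49 counts in siZNF514 and 7, 2 and 5 in nc. The part of such RNA in the results was not tested. The numbers of genes called over the whole set of enzyme genes are given below with and without that library. Counts by role, residue group, single list or chromosome, and of genes whose groups did not overlap, are given with all libraries only. Separate cultures are not stated for the libraries of a group, and the p-values then reflect the spread of these samples alone, which may be technical.

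Of the 42 genes, all of which had enough counts to be tested (mean counts 173 to 2083), 11 rose and 12 fell in siZNF514, and 19 did not pass. The call was made with edgeR's quasi-likelihood test at a Benjamini-Hochberg adjusted p of 0.05 over all genes tested, and it called 50.6% of all 14250 tested genes (25.5% higher and 25.1% lower). The 23 genes called are 54.8% of the 42, a share near that background, so their number is not a result about these enzymes. The same background applies to every count by residue group or list below, none of which was tested against it. Without the siZNF514 library of replicate 3, 9 rose and 9 fell, against 44.7% of all genes called. With total counts as the only scaling, which moves the median of all genes by -0.13 on the log2 scale, 8 rose and 17 fell, against 17.5% and 33.5% of all genes. All fold changes are thus relative to most other genes, and in bulk RNA fewer cells expressing a gene and less RNA per cell cannot be told apart. Values given with an SE, or for a changed setting or a left-out library, are log2 fold changes of siZNF514 over nc.

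**Figure D1:**
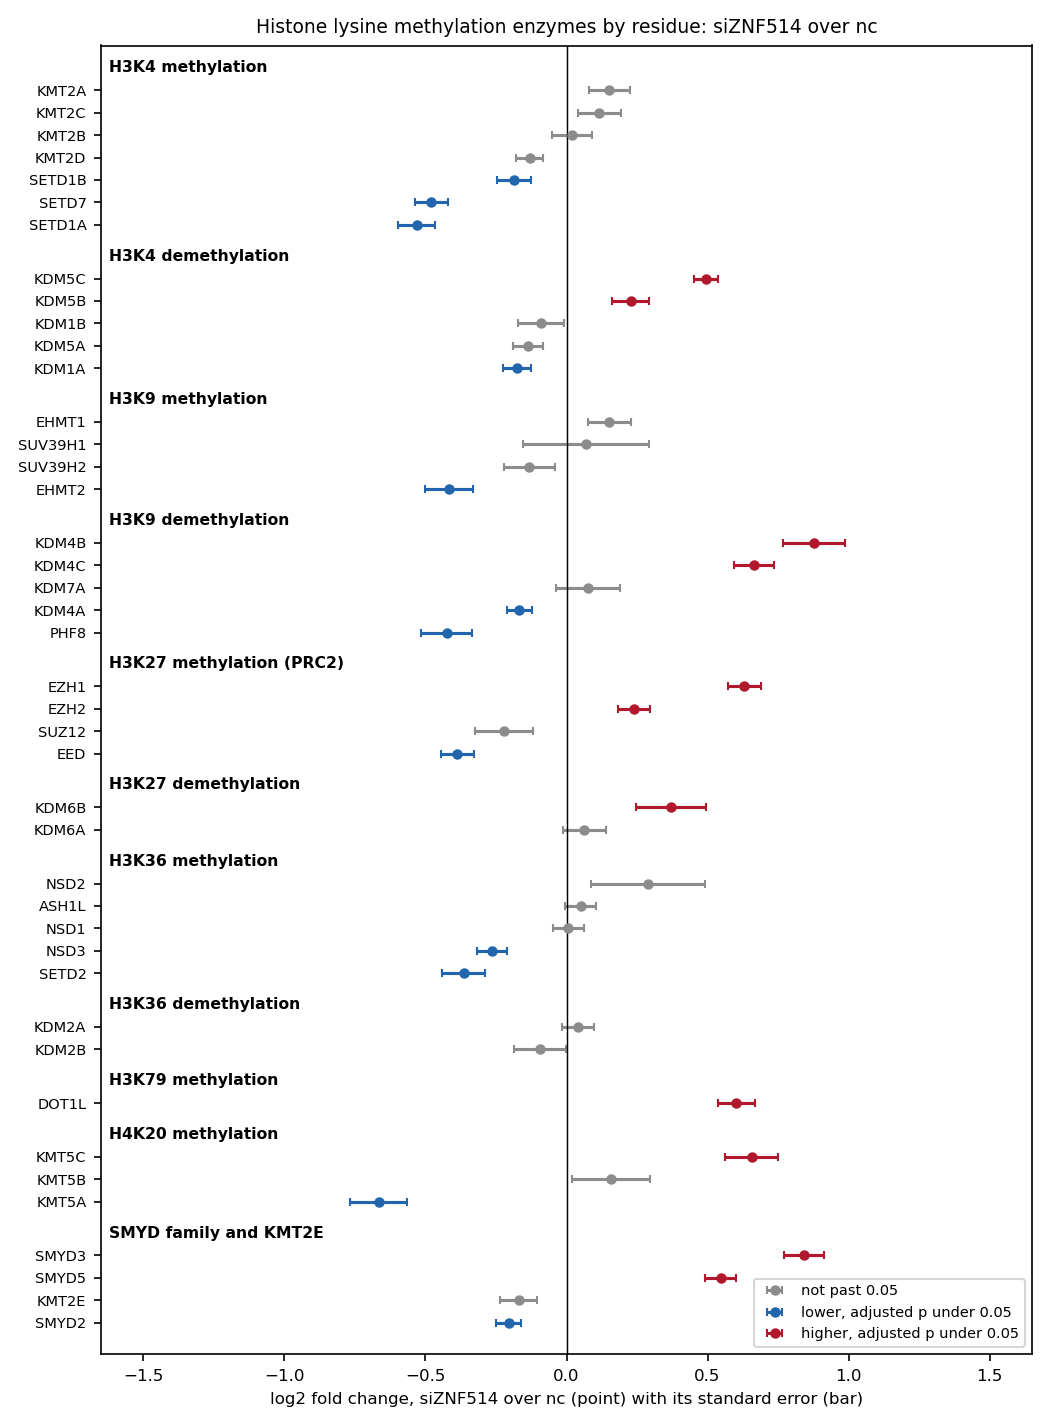
Log2 fold change of siZNF514 over nc (horizontal axis) with its standard error for the 42 genes, grouped by the histone residue acted on; colours give the call of the edgeR quasi-likelihood test. Within most groups some genes lie right of 0 and others left, from -0.66 for KMT5A to 0.88 for KDM4B.

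The changes were modest. None of the 42 reached a 2-fold change, while 9.28% of all tested genes were called at 2-fold or more, as were 5.8% of the 11609 genes averaging 50 counts or more, a level that all 42 exceeded. The median size of the log2 fold change, whatever its sign, was 0.21 over the 42 genes, 0.35 over all tested genes and 0.31 over tested genes averaging 50 counts or more. The signed median was 0.030 over the 42 genes, -0.0092 over all tested genes and 0.030 over tested genes averaging 50 counts or more. Among methyltransferases and PRC2 subunits 4 rose and 8 fell of 24, with a median of 0.013. Among demethylases 5 rose and 3 fell of 14, with a median of 0.052. The shares called, 50% and 57.1%, lie near the 50.6% of all tested genes (25.5% higher and 25.1% lower). A difference between these roles was not tested.

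**Figure D2:**
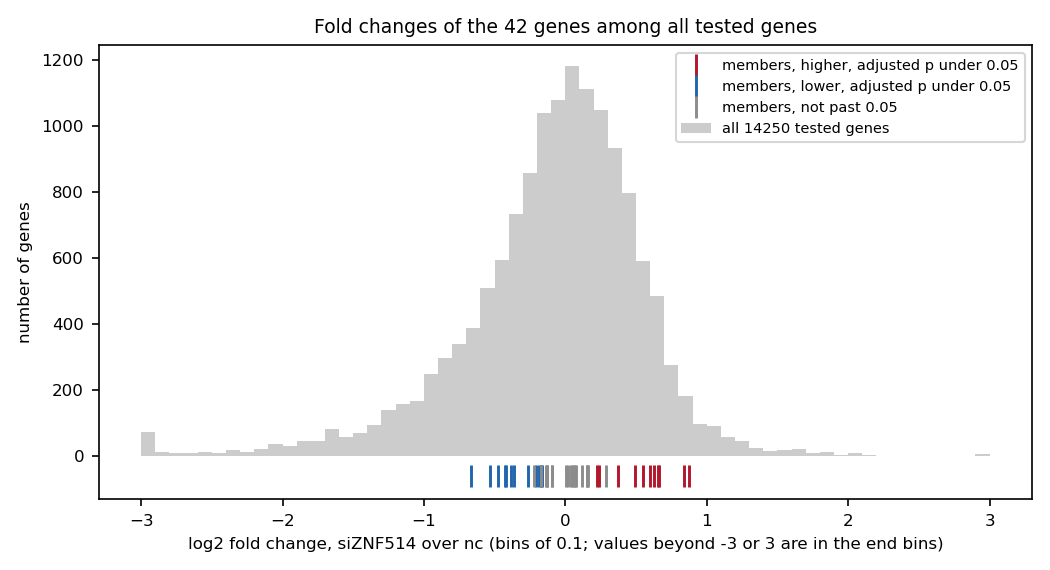
Number of genes (vertical axis) by log2 fold change of siZNF514 over nc (horizontal axis) for all 14250 tested genes, with the 42 enzyme genes as ticks below, coloured by call. The ticks run from -0.66 to 0.88, inside the body of the distribution.

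All 23 genes called had groups that did not overlap in CPM, as did 3 that were not called, and 60.3% of all tested genes had groups that did not overlap. Replicates lay close together for most genes, with a median SD of 5.34% of the mean in siZNF514 and 5.0% in nc. The exceptions were SUV39H1 and NSD2, whose SD in nc was 36.1% and 33.1% of the mean, in each case through 1 high nc library.

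**Figure D3:**
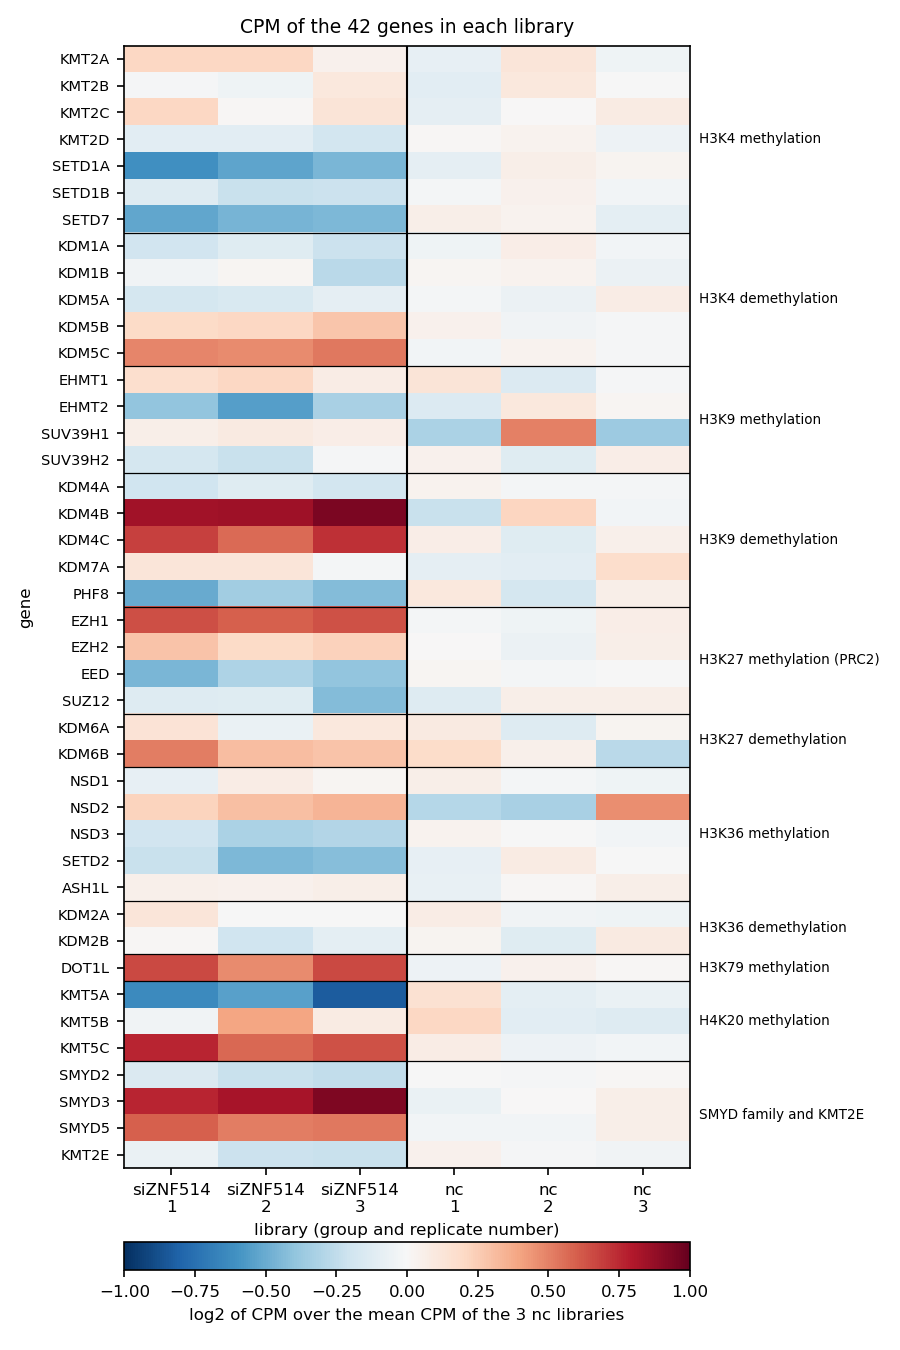
CPM of each of the 42 genes (rows) in the 3 siZNF514 and 3 nc libraries (columns), as the log2 ratio to the mean of the 3 nc libraries, with red above and blue below. KDM4B, SMYD3 and KMT5C are red and KMT5A and SETD1A blue in every siZNF514 library, while SUV39H1 and NSD2 each have 1 nc library unlike the other nc libraries.

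Of the 7 enzymes that methylate H3K4, SETD1A, SETD1B and SETD7 fell and the 4 large KMT2 enzymes did not pass. Whether these types differ was not tested. SETD1A (ENSG00000099381, chr16:30957294-30985116, plus strand), the catalytic subunit of a complex that trimethylates H3K4 at promoters, had 45.9, 48.6 and 51 CPM in the siZNF514 libraries, against 66, 72.9 and 71.5 CPM in the nc libraries. Every siZNF514 library was below every nc library, and the mean was 48.5 ± 2.55 in siZNF514 and 70.1 ± 3.64 in nc (SD, n = 3 each; log2 fold change -0.53, SE 0.066, adjusted p = 0.000585, edgeR).

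SETD7, which monomethylates H3K4 and several non-histone proteins, had 57.9, 60.2 and 60.7 CPM in siZNF514 and 86.5, 85.1 and 77.6 CPM in nc (-0.48, SE 0.060, adjusted p = 0.000588, edgeR). Its groups were also well apart. SETD1B, the paralogue of SETD1A, had 38.4, 36 and 36.2 CPM in siZNF514 and 41.4, 43.3 and 41.2 CPM in nc, a small difference (-0.19, SE 0.061, adjusted p = 0.037, edgeR) that no longer passed when siZNF514 replicate 2 or 3 (-0.16 and -0.16) or nc replicate 1, 2 or 3 (-0.19, -0.16 and -0.20) was left out. The call was also lost with the replicate block, with no count filter, with a gene length offset and in DESeq2.

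The KMT2 genes encode the catalytic subunits of the MLL complexes, KMT2A and KMT2B acting at promoters and KMT2C and KMT2D at enhancers. Their log2 fold changes were 0.15, SE 0.073 for KMT2A, 0.019, SE 0.071 for KMT2B, 0.12, SE 0.076 for KMT2C and -0.13, SE 0.047 for KMT2D. KMT2D had 120.2, 121 and 114 CPM in siZNF514 and 131, 133 and 125 CPM in nc, so its groups did not overlap, but its adjusted p was 0.0525 in edgeR. It passed with total counts alone (-0.26) and when only genes averaging 50 counts were fitted (-0.17), and KMT2A passed at 0.22 without nc replicate 2. KMT2B and KMT2C changed sign with total counts alone (-0.11 and -0.010).

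Among 12 further subunits of the KMT2 and SETD1 complexes, 3 rose, 5 fell and 4 did not pass (66.7% called, against 50.6% of all tested genes). Those that fell included PAGR1 (33.4 ± 2.7 CPM in siZNF514 and 57.5 ± 0.539 in nc; -0.79, SE 0.071) and NCOA6 (-0.36, SE 0.060), which belong to the KMT2C and KMT2D complexes. MEN1, the menin subunit of the KMT2A and KMT2B complexes, fell without overlap of the groups, with 41.7 ± 2.5 CPM in siZNF514 and 63.9 ± 0.717 CPM in nc (-0.62, SE 0.062), and HCFC1, a subunit shared by the SETD1 and MLL complexes, fell too (-0.49, SE 0.074). In the core shared by all these complexes WDR5 (0.25, SE 0.042) and DPY30 (0.21, SE 0.064) rose, RBBP5 fell (-0.43, SE 0.091) and ASH2L (0.15, SE 0.061) was called only when siZNF514 replicate 3 was left out (0.20). The chromatin reader PSIP1 also rose (0.21, SE 0.048). The calls of DPY30 and PSIP1 were lost with total counts alone (0.083 for each), and that of DPY30 also without siZNF514 replicate 2 (0.19) or 3 (0.20) or nc replicate 1 (0.20) or 3 (0.19).

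Of the 5 demethylases of H3K4, 2 rose, 1 fell and 2 did not pass. KDM5C (ENSG00000126012, chrX:53191321-53225422, minus strand), a JmjC enzyme that removes methyl groups from trimethylated H3K4, had 184, 181 and 188 CPM in siZNF514, against 129, 135 and 129.9 CPM in nc. All siZNF514 libraries were above all nc libraries (0.49, SE 0.042, adjusted p = 0.000106, edgeR). KDM5C took 64% ± 0.392 of the summed FPKM (deposited values: counts divided by gene length and library total) of KDM5A, KDM5B and KDM5C in siZNF514 and 55.2% ± 1.37 in nc (SD, n = 3 each).

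KDM5B, a paralogue of KDM5C, had 30.8, 31 and 32.7 CPM in siZNF514 and 27.7, 26.2 and 26.7 CPM in nc (0.23, SE 0.067, adjusted p = 0.0264, edgeR). The groups did not overlap, but the call was lost without siZNF514 replicate 3 (0.21), nc replicate 2 (0.21) or nc replicate 3 (0.23), with total counts alone (0.10), with the replicate block (0.23) and in DESeq2 (0.24). KDM5A, the third paralogue, did not pass (-0.14, SE 0.054, adjusted p = 0.0714 in edgeR), with 77.8, 79 and 82.3 CPM in siZNF514 and 86.4, 84.3 and 92.1 CPM in nc, and passed as lower with total counts alone (-0.26).

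KDM1A, also called LSD1, removes methyl groups from mono- and dimethylated H3K4 within the CoREST complex. It had 142, 149 and 139 CPM in siZNF514 and 158, 169 and 159 CPM in nc (-0.18, SE 0.050, adjusted p = 0.0218, edgeR), and this small decrease was not called without siZNF514 replicate 1 (-0.16) or 3 (-0.15) or nc replicate 2 (-0.14), nor in DESeq2 (-0.16). Its relative KDM1B did not pass (-0.091, SE 0.081). Of 8 genes of their partner proteins, the deacetylase gene HDAC1 rose (237 ± 11.3 CPM in siZNF514 and 191 ± 11.2 in nc; 0.31, SE 0.058), HMG20B, a subunit of the CoREST complex, fell (-0.21, SE 0.045) and 6 did not pass.

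Of the 4 methyltransferases of H3K9, 1 fell and 3 did not pass. EHMT2, also called G9a, dimethylates H3K9 as a dimer with EHMT1, and had 55.3, 49.7 and 58.1 CPM in siZNF514, against 66, 78.1 and 73.7 CPM in nc. Its groups did not overlap (-0.42, SE 0.086, adjusted p = 0.00593, edgeR). EHMT1 had 96.5 ± 4.43 CPM in siZNF514 and 86.9 ± 7.97 CPM in nc (0.15, SE 0.076; past at 0.22 without nc replicate 1), so EHMT2 took 55.9% ± 3.05 of the FPKM of the pair in siZNF514 and 65.2% ± 4.01 in nc (SD, n = 3 each).

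SUV39H1 and SUV39H2 trimethylate H3K9 in constitutive heterochromatin. SUV39H1 had 32.9, 33.7 and 33.1 CPM in siZNF514, against 25.4, 44.7 and 24.6 CPM in nc. The siZNF514 libraries were alike and lay between the nc library of replicate 2 and the other nc libraries, so the log2 fold change was 0.069, SE 0.22 with all libraries and 0.41, past the threshold, without nc replicate 2. SUV39H2 did not pass (-0.13, SE 0.091), and 159 of its exonic bases are shared with DCLRE1C on the other strand.

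The demethylases of H3K9 held the gene of the 42 with the greatest increase, KDM4B. KDM4A, KDM4B and KDM4C, of the KDM4 family, remove methyl groups from trimethylated H3K9 and H3K36. Of these, KDM4B and KDM4C rose while KDM4A fell slightly. KDM4D, a member of the same family outside the 42 genes and at a low level, also fell, with 4.79, 4.06 and 3.37 CPM in siZNF514 and 6.29, 6.03 and 7.1 CPM in nc (-0.67, SE 0.17; -0.59 and not called without nc replicate 3). KDM4B (ENSG00000127663, chr19:4969113-5153595, plus strand) had 47.9, 48.1 and 51.2 CPM in siZNF514, against 22.9, 31 and 26.1 CPM in nc. The lowest siZNF514 library was well above the highest nc library, at a mean of 49.1 ± 1.89 in siZNF514 and 26.7 ± 4.08 in nc (SD, n = 3 each; 0.88, SE 0.11, adjusted p = 0.000641, edgeR).

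KDM4C (ENSG00000107077, chr9:6757641-7175648, plus strand) had 113, 104 and 117 CPM in siZNF514, against 73.3, 64.6 and 72.6 CPM in nc, again without overlap (0.66, SE 0.070, adjusted p = 0.000286, edgeR). KDM4A (ENSG00000066135, chr1:43650158-43705515, plus strand) had 93, 98.3 and 93.7 CPM in siZNF514 and 109, 105 and 105 CPM in nc (-0.17, SE 0.046, adjusted p = 0.0192, edgeR). Its call was lost without siZNF514 replicate 1 (-0.14) or 3 (-0.15) or nc replicate 1 (-0.15), with the replicate block (-0.17), with no count filter and in DESeq2 (-0.15). Its antisense neighbour KDM4A-AS1 shares 464 of its exonic bases and held 103 counts over the 6 libraries. By FPKM, KDM4A was the most abundant of these 3, with 61.6% ± 1.85 of the summed FPKM of KDM4A, KDM4B and KDM4C in siZNF514 and 74.7% ± 0.563 in nc (SD, n = 3 each).

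The 250 bases upstream of the RefSeq start of these genes (GRCh38.p14) are shown because the family moved in both directions. They lie at chr19:4968863-4969112, plus strand, for KDM4B, chr9:6757723-6757972, plus strand, for KDM4C, and chr1:43649899-43650148, plus strand, for KDM4A. The KDM4C window lies inside the deposited KDM4C locus, which starts at 6757641, so it is upstream of the RefSeq start only. Those of KDM4A and KDM4B end before their deposited loci. Capitals mark ACGTG and GCGTG on either strand, the core letters of hypoxia response elements, where ACGTG on both strands makes the E-box CACGTG.
KDM4B: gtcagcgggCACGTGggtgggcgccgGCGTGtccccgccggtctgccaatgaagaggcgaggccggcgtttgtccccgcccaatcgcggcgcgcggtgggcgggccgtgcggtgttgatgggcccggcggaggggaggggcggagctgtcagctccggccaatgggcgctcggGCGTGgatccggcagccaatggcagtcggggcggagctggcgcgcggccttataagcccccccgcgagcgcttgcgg
KDM4C: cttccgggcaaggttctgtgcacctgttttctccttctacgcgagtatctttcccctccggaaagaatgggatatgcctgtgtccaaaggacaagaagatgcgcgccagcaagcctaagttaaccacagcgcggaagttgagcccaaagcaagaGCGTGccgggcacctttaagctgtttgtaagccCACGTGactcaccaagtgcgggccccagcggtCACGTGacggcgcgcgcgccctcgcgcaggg
KDM4A: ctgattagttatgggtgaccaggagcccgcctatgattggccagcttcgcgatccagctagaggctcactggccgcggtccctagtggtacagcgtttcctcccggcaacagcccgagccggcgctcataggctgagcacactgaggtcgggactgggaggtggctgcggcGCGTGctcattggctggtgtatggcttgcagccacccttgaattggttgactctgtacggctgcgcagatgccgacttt
CACGTG occurred 1 time in the KDM4B window, 2 times in that of KDM4C and 0 times in that of KDM4A. GCGTG occurred 2 times in the window of KDM4B, 1 time in that of KDM4C and 1 time in that of KDM4A. These windows were chosen with the fold changes known, and the window of KDM4D is not shown. A link of the letters to the fold changes was not tested. Over 35116 such windows of all genes, 6.34% held CACGTG, 18.5% ACGTG and 32.2% GCGTG. RefSeq windows were found for 39 of the 42 genes, and of their 56 windows 6 held CACGTG, 11 ACGTG and 34 GCGTG. Some of these genes have more than 1 window, the windows were not matched for base composition, and enrichment was not tested. The E2F-type letters TTTCCCGC were in 3 of the 56 (and 1.39% of all windows), TTTGGCGC in 0 (0.55%) and TTTCGCGC in 0 (0.439%), and the cell cycle element TTTGAA was in 3 (13.3%), on either strand.

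PHF8 and KDM7A are related JmjC enzymes that act on dimethylated H3K9, PHF8 also on monomethylated H4K20. PHF8 had 34.2, 38.1 and 35.8 CPM in siZNF514 and 52.1, 42.8 and 50.4 CPM in nc, so it fell without overlap (-0.43, SE 0.090, adjusted p = 0.00669, edgeR), and KDM7A did not pass at a low level (13.5 ± 0.737 CPM in siZNF514 and 12.8 ± 1.44 CPM in nc; 0.076, SE 0.11). Of 9 further JmjC genes, 1 rose, 5 fell and 3 did not pass (66.7% called, against 50.6% of all tested genes). KDM3A, a demethylase of H3K9 known to be induced by hypoxia, rose without overlap of the groups, with 65.9 ± 7.18 CPM in siZNF514 and 26.1 ± 0.616 CPM in nc (1.34, SE 0.088). Those that fell included RIOX1 (10.8 ± 0.988 CPM in siZNF514 and 23.8 ± 1.01 in nc; -1.14, SE 0.099) and RIOX2 (-0.38, SE 0.060), ribosomal oxygenases, with PHF2 (-0.64, SE 0.060), a relative of PHF8, and HR (-0.96, SE 0.14), a nuclear receptor corepressor of hair follicles.

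Of the 4 genes of PRC2, the complex that methylates H3K27, EZH1 and EZH2, the alternative catalytic subunits, rose. EED, which binds the methylated product and stimulates the enzyme, fell, and SUZ12 did not pass. EZH1 (ENSG00000108799, chr17:42700275-42745049, minus strand) had 53.1, 51.4 and 52.8 CPM in siZNF514, against 33.4, 32.8 and 35.5 CPM in nc. The siZNF514 libraries were all higher (0.63, SE 0.058, adjusted p = 0.000161, edgeR), at a mean of 52.4 ± 0.946 in siZNF514 and 33.9 ± 1.41 in nc (SD, n = 3 each).

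EZH2, the form that predominates in dividing cells, had 62.1, 58.3 and 59.8 CPM in siZNF514 and 50.9, 48.8 and 52.9 CPM in nc (0.24, SE 0.057, adjusted p = 0.0114, edgeR). Its increase was smaller, and with total counts alone it was 0.11 and not called. EZH2 made up 62.1% ± 0.418 of the FPKM of the pair in siZNF514 and 68.3% ± 0.303 in nc (SD, n = 3 each), a ratio that no scaling of libraries changes.

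EED had 44.3, 49.1 and 46.3 CPM in siZNF514, against 61.8, 60.1 and 60.7 CPM in nc (-0.39, SE 0.058, adjusted p = 0.0014, edgeR), with no overlap. SUZ12, the scaffold of the complex, had 53.4, 54 and 43.3 CPM in siZNF514 and 53.6, 61.1 and 61.1 CPM in nc and did not pass (-0.22, SE 0.10), though it did with total counts alone (-0.35). Its pseudogene SUZ12P1 held 463 counts over the 6 libraries, 10.7% of those of SUZ12, and reads could be shared between the copies.

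**Figure D4:**
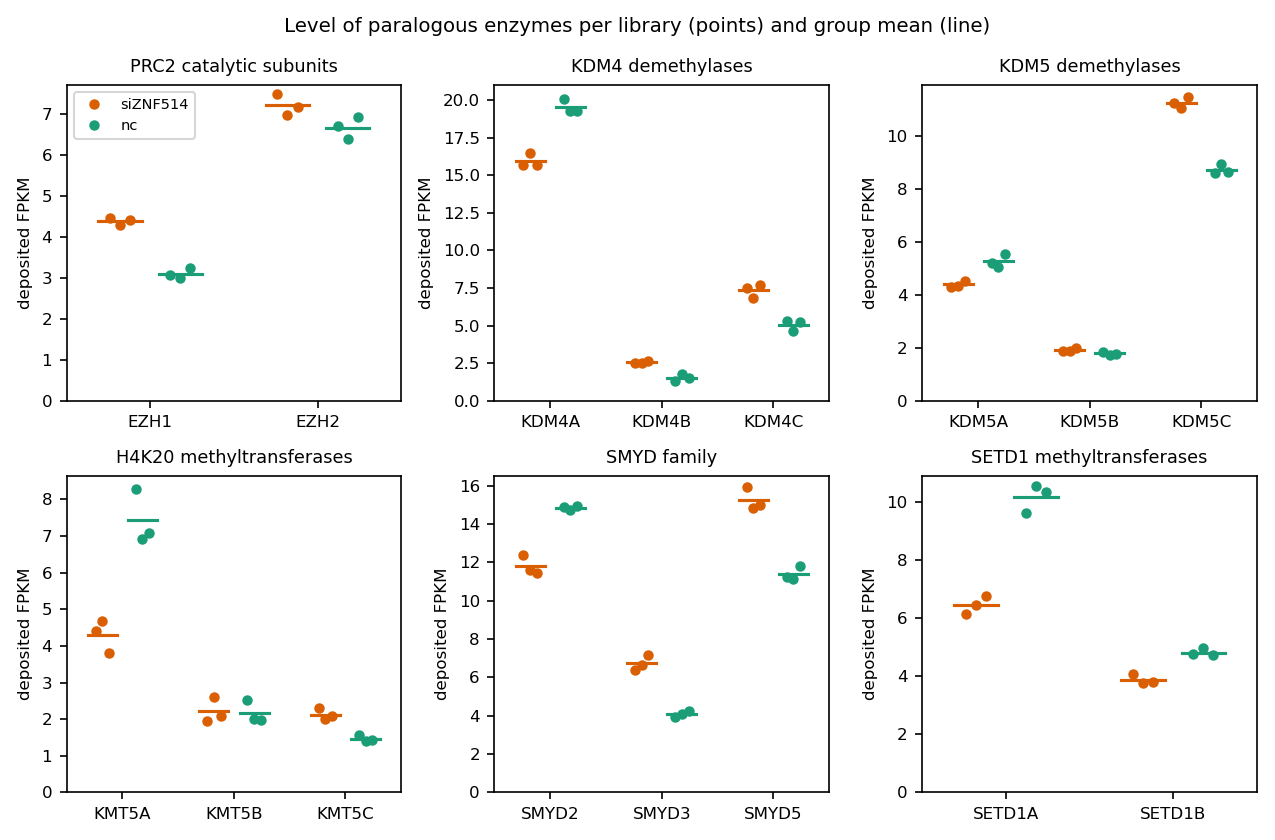
Deposited FPKM (vertical axis, from 0) of paralogous enzymes in each siZNF514 library (orange, left of each pair) and nc library (green, right), with a line at the group mean. Within the KDM4, KDM5, H4K20 and SMYD families some paralogues are higher and others lower in siZNF514 by group mean. These FPKM carry no composition scaling.

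Among 9 further PRC2 genes, 8 were tested, and 3 rose, 3 fell and 2 did not pass (75% called, against 50.6% of all tested genes). EZHIP, an inhibitor of the complex, had too few counts to test. RBBP7, a histone-binding subunit, rose (295 ± 12.7 CPM in siZNF514 and 202 ± 8.28 CPM in nc; 0.55, SE 0.050), with MTF2 (0.52, SE 0.17) and JARID2 (0.22, SE 0.066), which help to recruit the complex. PHF19, which like MTF2 is a Polycomb-like protein, fell (65.6 ± 2.44 CPM in siZNF514 and 103 ± 2.86 CPM in nc; -0.65, SE 0.051), with EPOP (-1.29, SE 0.17), which links PRC2 to elongin, and AEBP2 (-0.29, SE 0.10), a subunit found with JARID2. The calls of MTF2, JARID2 and AEBP2 were not stable. MTF2 was not called without any single siZNF514 library (0.52, 0.50 and 0.57), JARID2 without siZNF514 replicate 1 (0.18) or nc replicate 1 or 2 (0.21 each), and AEBP2 without siZNF514 replicate 1, 2 or 3 (-0.25, -0.32 and -0.27) or nc replicate 2 (-0.18) or 3 (-0.30). MTF2 and JARID2 were also not called with total counts alone (0.39 and 0.096). For MTF2 the nc libraries had 36.6, 36.2 and 23.2 CPM, nc replicate 3 being the low one, against 46.7, 47.8 and 43.3 CPM in siZNF514.

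PRC1 is the complex that ubiquitinates histone H2A and binds methylated H3K27. Of its 19 genes listed, 5 rose, 5 fell and 9 did not pass (52.6% called, against 50.6% of all tested genes). Its catalytic subunits RING1 (34.4 ± 2.94 CPM in siZNF514 and 55.4 ± 4.17 in nc; -0.69, SE 0.087) and RNF2 (19.8 ± 1.43 CPM in siZNF514 and 31.8 ± 2.31 in nc; -0.68, SE 0.091) both fell. The chromodomain genes split, CBX7 (0.67, SE 0.064) and CBX6 (0.42, SE 0.038) rising and CBX2 (-0.77, SE 0.15) falling. PCGF1 (0.64, SE 0.14) and PHC2 (0.26, SE 0.056) rose. The call of PHC2 was lost with total counts alone (0.14).

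The H3K27 demethylases are KDM6A, also called UTX, and KDM6B, which is induced by inflammatory signals in macrophages. KDM6B had 59.6, 51.7 and 50.9 CPM in siZNF514 and 47.5, 43.3 and 34.6 CPM in nc (0.37, SE 0.12, adjusted p = 0.0411, edgeR). The groups did not overlap but lay close, and the call was lost without any single siZNF514 library (0.30, 0.41 and 0.42), without nc replicate 2 (0.40) or 3 (0.25), with total counts alone (0.24) and when only genes averaging 50 counts were fitted (0.33). KDM6A did not pass (0.064, SE 0.077; -0.063 with total counts alone), at 108 ± 8.07 CPM in siZNF514 and 104 ± 7.83 CPM in nc.

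Of the 5 methyltransferases of H3K36, 2 fell and 3 did not pass. SETD2, which trimethylates H3K36 along transcribed genes, had 91.7, 78.3 and 79.6 CPM in siZNF514 and 101, 113 and 107 CPM in nc. Its groups were apart (-0.36, SE 0.076, adjusted p = 0.00621, edgeR). NSD3, which dimethylates H3K36, had 71.6, 65.7 and 66.5 CPM in siZNF514 and 83.5, 81.4 and 80.0 CPM in nc (-0.26, SE 0.054, adjusted p = 0.00551, edgeR), and 545 of its exonic bases are shared with DDHD2 on the other strand.

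The related enzyme NSD2 had 135, 143 and 147 CPM in siZNF514, against 95, 92.7 and 160.5 CPM in nc. The nc library of replicate 3 was above every siZNF514 library and the other nc libraries were below them all, so NSD2 did not pass (0.29, SE 0.20) but was called higher, at 0.60, without nc replicate 3. NSD1 (0.0062, SE 0.056) and ASH1L (0.050, SE 0.054) did not pass and turned to -0.12 and -0.077 with total counts alone. NSD1 averaged 154 ± 8.57 CPM in siZNF514 and 154 ± 5.62 CPM in nc.

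The demethylases KDM2A and KDM2B, which remove methyl groups from dimethylated H3K36 and bind unmethylated CpG islands, did not pass. KDM2A, the more abundant by FPKM, had 154, 141 and 140.5 CPM in siZNF514 and 149, 138 and 136 CPM in nc (0.040, SE 0.058; -0.086 with total counts alone). The groups overlapped, as they did for KDM2B (-0.094, SE 0.091), of whose exonic bases 439 are shared with RNF34 on the other strand.

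DOT1L (ENSG00000104885, chr19:2164149-2232578, plus strand), the only gene here that encodes an H3K79 methyltransferase, rose. It had 107, 93.8 and 107 CPM in siZNF514, against 65.2, 69.4 and 67.9 CPM in nc, and the groups were far apart (0.60, SE 0.066, adjusted p = 0.000322, edgeR). Its mean was 102 ± 7.48 CPM in siZNF514 and 67.5 ± 2.11 CPM in nc (SD, n = 3 each). PLEKHJ1, on the other strand, shares 529 of its exonic bases, or 4.69%, and without knowledge of strand use reads there cannot be told apart.

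Of the 3 H4K20 methyltransferases KMT5A fell, KMT5C rose and KMT5B did not pass. KMT5A, also called SET8, places the first methyl group on H4K20 and is destroyed and rebuilt in each cell cycle, and KMT5B and KMT5C add the further ones. KMT5A (ENSG00000183955, chr12:123383773-123409358, plus strand) had 36.6, 39.2 and 32 CPM in siZNF514, against 63.3, 53.2 and 54.4 CPM in nc, the greatest decrease of the 42 genes (-0.66, SE 0.10, adjusted p = 0.00147, edgeR). KMT5C had 21.2, 18.6 and 19.4 CPM in siZNF514, against 13.2, 12.1 and 12.3 CPM in nc, an increase without overlap (0.66, SE 0.093, adjusted p = 0.00107, edgeR).

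KMT5B did not pass (0.16, SE 0.14), with 35.2, 47.2 and 38.1 CPM in siZNF514 and 41.6, 33.4 and 33 CPM in nc. The share of KMT5A in the summed FPKM of the 3 genes was 49.7% ± 1.7 in siZNF514 and 67.1% ± 0.236 in nc (SD, n = 3 each). The value of KMT5A is uncertain in 1 respect. Its processed copies KMT5AP1 and KMT5AP2 held 240 and 743 counts over the 6 libraries, the second 20.2% of those of KMT5A, and their log2 fold changes were -0.42 (not past) and -0.48 (past), so reads may be split between the copies.

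The SMYD proteins carry a SET domain split by a MYND zinc finger and methylate histones and other proteins, SMYD2 among them p53 and SMYD3 the kinase MAP3K2. SMYD3 (ENSG00000185420, chr1:245749342-246507312, minus strand) had 52.8, 55.3 and 59.6 CPM in siZNF514, against 29.7, 31.4 and 32.5 CPM in nc. Its groups were far apart, and among the 42 genes it had the smallest p-value (0.84, SE 0.070, adjusted p = 9.92e-05, edgeR). SMYD5, whose reported substrates include H4K20, had 79.2, 74.5 and 75.3 CPM in siZNF514, against 51.3, 51.2 and 54.4 CPM in nc (0.55, SE 0.054, adjusted p = 0.000217, edgeR).

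SMYD3 took 19.9% ± 1.43 of the summed FPKM of the 3 SMYD genes in siZNF514 and 13.5% ± 0.388 in nc (SD, n = 3 each). SMYD2 fell, with 120.3, 114 and 112 CPM in siZNF514 and 133, 132 and 134 CPM in nc (-0.21, SE 0.045, adjusted p = 0.00763, edgeR). KMT2E, which lacks a known methyltransferase activity despite its SET domain, did not pass (-0.17, SE 0.066), though its groups did not overlap and it passed without siZNF514 replicate 1 (-0.21) and with total counts alone (-0.30). Among 12 further lysine methyltransferase genes, 9 were tested, of which SETDB1, an H3K9 enzyme, rose (63 ± 5.55 CPM in siZNF514 and 47.6 ± 4.82 in nc; 0.41, SE 0.096), SMYD4 (-0.71, SE 0.068) and SETD6 (-0.46, SE 0.074) fell and 6 did not pass. The call of SETDB1 was lost in limma-trend on log2 FPKM (0.27 at a pseudocount of 0.1). SMYD1, PRDM9 and PRDM16 had too few counts to test.

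**Figure D5:**
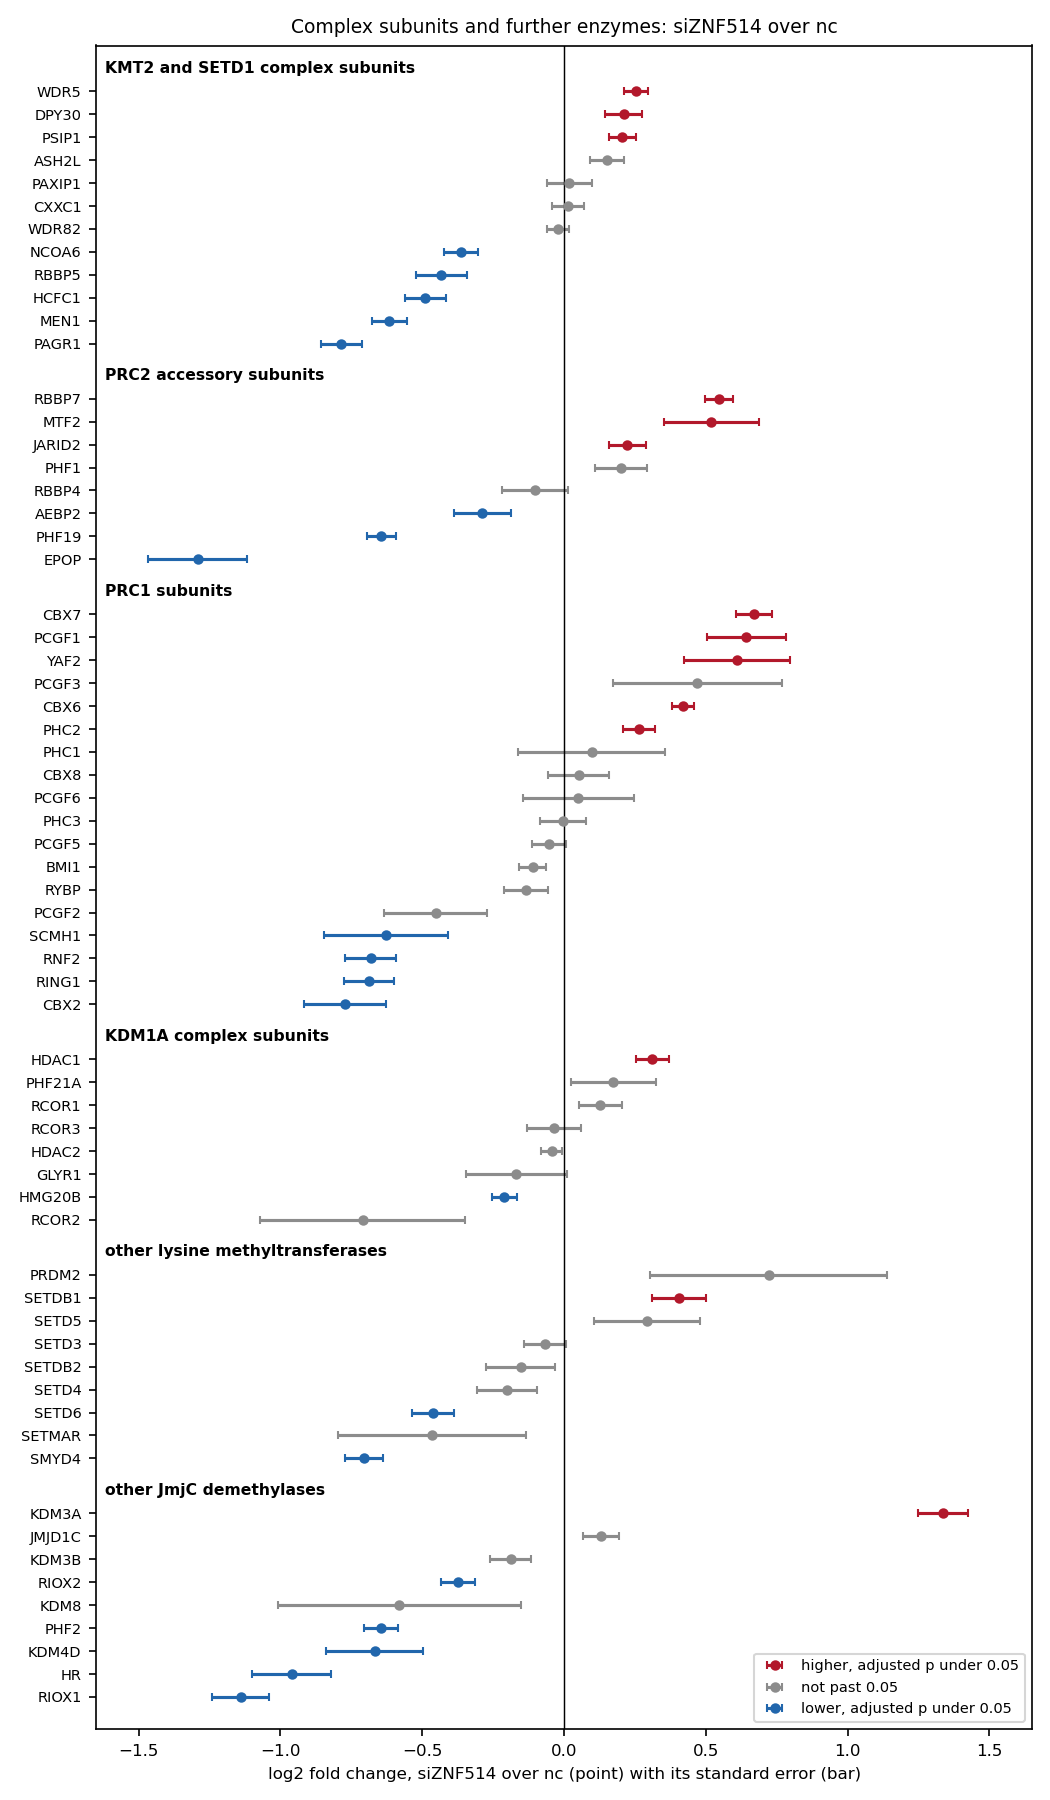
Log2 fold change of siZNF514 over nc (horizontal axis) with its standard error for tested genes on 6 lists of complex subunits and further enzymes, with 1 PRC1 gene not drawn; colours give the call. Over the 65 tested genes of the lists 14 rose and 21 fell, KDM3A standing farthest right at 1.34 and EPOP farthest left at -1.29.

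Over the 6 related lists 35 of 65 tested genes were called, or 53.8%, beside 50.6% of all tested genes. Their median size of log2 fold change was 0.31, and 3 of them passed a 2-fold change, KDM3A, RIOX1 and EPOP. By list, the share of tested genes called ran from 25% for the partners of KDM1A to 75% for the further PRC2 genes. It was 33.3% for the further lysine methyltransferases.

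Levels per length spanned a wide range. By mean FPKM over the 6 libraries the most abundant of the 42 was KDM1A (17.1 ± 0.58 in siZNF514 and 21.1 ± 0.79 in nc), then KDM4A (16 ± 0.444 in siZNF514 and 19.5 ± 0.464 in nc) and KDM1B (13.5 ± 1.4 in siZNF514 and 15.7 ± 0.562 in nc; SD, n = 3 each). KDM7A was the least abundant (0.786 ± 0.0451 in siZNF514 and 0.815 ± 0.0908 in nc), below KDM2B (1.08 ± 0.0835 in siZNF514 and 1.25 ± 0.0917 in nc) and KMT2C (1.51 ± 0.108 in siZNF514 and 1.52 ± 0.0898 in nc). SMYD2 and SMYD5, next in the order, exchanged places: SMYD5 was the higher in siZNF514 (15.3 ± 0.57 against 11.8 ± 0.5 for SMYD2) and SMYD2 in nc (14.9 ± 0.111 against 11.4 ± 0.375 for SMYD5). The lengths behind these FPKM, implied by the deposited counts and FPKM, run from 4782 to 37513 bases. For NSD1 the implied length was 26380 bases, against 15493 exonic bases in GENCODE 29, so the levels compare genes only roughly.

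The 42 genes are long for the table: with tested genes in 5 equal classes of implied length, 22 of the 42 were in the longest class (12771 bases or more) and 0 in the shortest. In the longest class 23.9% of all genes were called higher and 24.6% lower, with a median log2 fold change of -0.025, against 24.8%, 20.9% and 0.046 in the shortest. With an offset for length, 11 of the 42 genes rose and 11 fell, against 26.1% and 24.3% of all genes, SETD1B being the 1 call lost. The genes lie on many chromosomes, 4 of them (KDM5C, KDM6A, PHF8 and SUV39H1) on the X, where 1 rose, 1 fell and 2 did not pass.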

How the data were processed

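Per the labels, TRIzol was used for RNA, a VAHTS General V6 kit for libraries and an Illumina NovaSeq for sequencing. HISAT2 2.0.4, StringTie 1.3.3b, edgeR and build hg38 appear in the submitters' processing notes without role or order. The sources used here do not give an annotation release, a strand setting or a filter. Coordinates are those of the deposited table, and all 42 loci overlapped the same identifiers of GENCODE 29 (GRCh38), 37 with identical ends.

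The deposited counts are whole numbers with no visible normalization. The deposited FPKM matched each count divided by 1 length per gene and the library total to within 0.0791% over 22289 genes. Columns were matched by library title. Within a group, each pair of libraries differed by more than sampling noise (chi-square per degree of freedom 7.98 to 10.0).

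Genes were filtered with filterByExpr (minimum count 10, minimum total 15), leaving 14250. Libraries were scaled by TMM factors, and the siZNF514 libraries were set against the nc libraries by the quasi-likelihood F test of edgeR 4.0.16 (R 4.3.3), with Benjamini-Hochberg adjustment over all genes tested. CPM are counts scaled by each library's tested counts and TMM factor. The SE is the size of the log2 fold change divided by the square root of F. Alternatives used limma 3.58.1 and DESeq2 1.42.0, and the procedures were tested on simulated data.

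The genes, lists and alternatives were chosen with earlier results of these data known. Every one of the 42 genes could be named, with values in every library for those past the threshold and, in a residue group with none, for the most abundant; of each related list, up to 4 genes with the smallest p-values in each direction were named, and any other was chosen after its values were seen. A gene of the PRC1 list and a leukocyte marker are counted in their lists but not reported here. Promoter windows are from RefSeq.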

Additional observations from a re-analysis of the deposited data

How the results depend on the processing

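The calls of 17 of the 23 called genes held in all 17 alternatives run: SETD1A, SETD7, KDM5C, EHMT2, KDM4B, KDM4C, PHF8, EZH1, EED, NSD3, SETD2, DOT1L, KMT5A, KMT5C, SMYD2, SMYD3 and SMYD5. The other calls (SETD1B, KDM1A, KDM5B, KDM4A, EZH2 and KDM6B) rest on log2 fold changes of 0.24 or less in size, apart from KDM6B, and were each lost in 5 or more alternatives. Between 18 and 25 of the 42 genes were called over the alternatives, 8 to 12 higher and 9 to 17 lower. Of the 65 related genes 31 to 37 were called. Over the same alternatives 26.7% (no count filter) to 54.7% (genes averaging 50 counts or more) of all tested genes were called. By direction these shares were 13.6 to 27.5% higher and 13.1 to 33.5% lower. Leaving out 1 library at a time gave 18 to 22 calls among the 42 genes, 9 to 12 higher and 9 to 11 lower. Over all genes it gave 6310 to 6563 calls, or 43.4 to 44.7% of those tested. The targeted gene ZNF514 was lower in each alternative, from -2.0 to -0.94.

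The replicate numbers showed no sign of pairing the libraries. The deviations of same-numbered libraries correlated at -0.04 to 0.04, and those of differently numbered libraries at -0.063 to 0.053. With 3 libraries a group such correlations cannot exclude a pairing. With the replicate number as a block, 20 of the 42 genes (10 higher and 10 lower) and 6640 of all genes (46.6%) were called. SETD1B, KDM5B and KDM4A were the calls lost among the 42.

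Among the 42 genes, a change of sign was seen only for genes not called, at log2 fold changes of 0.0062 to 0.12 with all libraries. With total counts alone the log2 fold changes became -0.11 for KMT2B, -0.010 for KMT2C, -0.058 for SUV39H1, -0.051 for KDM7A, -0.063 for KDM6A, -0.12 for NSD1, -0.077 for ASH1L and -0.086 for KDM2A. In limma-trend on log2 FPKM, at the pseudocounts and filter tried, they were -0.11, -0.10 and -0.092 for KMT2B, -0.010, -0.0096 and -0.0060 for KMT2C, -0.046, -0.042 and -0.022 for KDM7A, -0.063, -0.062 and -0.057 for KDM6A, -0.12 and -0.10 for NSD1, -0.075, -0.073 and -0.059 for ASH1L and -0.086, -0.084 and -0.073 for KDM2A, and -0.0044 for SUV39H1 at a pseudocount of 1. With genes averaging 50 counts or more, KMT2B was -0.016 and NSD1 -0.029. Single libraries also turned the sign of KMT2B (-0.019 without siZNF514 replicate 3 and -0.028 without nc replicate 1), NSD1 (-0.023 without siZNF514 replicate 2, -9.7e-05 without nc replicate 2 and -0.012 without nc replicate 3) and SUV39H1 (-0.064 without nc replicate 1 and -0.079 without nc replicate 3). Leaving out single libraries gave at most 0.075 for KMT2B, 0.059 for NSD1 and 0.41 for SUV39H1. The cause was not tested. For KMT2C, KDM7A, KDM6A, ASH1L and KDM2A no left-out library turned the sign, and the flips came with scalings that shift all genes. The marker CDH1 was 0.014 without siZNF514 replicate 1 and -0.37 without siZNF514 replicate 2, against -0.23 with all libraries. FPKM-based tests carry no composition scaling, as with total counts alone.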

Other observations

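Genes of related enzymes also had nc libraries unlike each other, and those named here were chosen after their values were seen. PRDM2, which encodes a zinc finger protein with a SET-like domain, had 409, 433 and 420 counts in the siZNF514 libraries, against 152, 161 and 448 in the nc libraries, so nc replicate 3 lay near the siZNF514 libraries and the other nc libraries were lower. SETD5 had 1529, 1573 and 1656 counts in siZNF514 and 865, 1638 and 1437 in nc, with nc replicate 1 the low one. Without nc replicate 3 PRDM2 was called, at 1.47. With all libraries neither passed edgeR's quasi-likelihood test after adjustment (log2 fold change 0.72, SE 0.42 and 0.29, SE 0.19). The siZNF514 libraries of both genes were alike. For other genes on the lists the siZNF514 libraries differed. GLYR1, among the partner genes of KDM1A and KDM1B, had 60.6, 99.2 and 97.9 CPM in siZNF514, against 103, 93.3 and 93 CPM in nc, and did not pass.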
